A study of Mus musculus with 6 samples.

Results

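Integrins and laminins were compared between untreated mouse embryonic stem cells with conditional Dicer alleles and such cells given tamoxifen to delete Dicer. The genes were taken by symbol: integrin alpha and beta subunits and laminin alpha, beta and gamma chains named singly by a probe set in the table used here. Of several probe sets for a gene, the one brightest over the 6 arrays was kept. This gave 37 genes, 27 integrins and 10 laminins, of 19938 genes measured.

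Dicer cuts hairpin precursors into mature microRNAs. The 3 untreated samples, labelled Dicer Fx/Fx, are embryonic stem cells with conditional Dicer alleles that had not been deleted. The 3 samples labelled Dicer Fx/Fx tamoxifen carry the same alleles and were given tamoxifen, which served to delete Dicer; the labels describe 3 days with the drug and collection 2 days later, on day 5. Both groups therefore share the conditional alleles. The labels name neither the recombinase nor its driver, and give no collection day for the untreated cells. No wild-type cells treated alike were analysed here, so tamoxifen and Dicer deletion cannot be told apart.

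Integrins are cell surface receptors built from an alpha and a beta subunit, which link the extracellular matrix to the actin cytoskeleton. Laminins are cross-shaped trimers of an alpha, a beta and a gamma chain and are the organising proteins of basement membranes. Embryonic stem cells attach to laminin mainly through the Itga6 and Itgb1 dimer, and to vitronectin through dimers that hold Itgav.

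The values are log2 intensities. Dicer1 gave 11.43, 11.36 and 11.48 on the untreated arrays and 9.53, 9.48 and 9.69 on the tamoxifen arrays, and fell by 1.85 ± 0.07 on the log2 scale (SE; limma adjusted p = 3.61e-05). Arrays of the same group correlated across genes at 0.996 to 0.998, and arrays of different groups at 0.993 to 0.996. All 12 listed markers of embryonic stem cells were measured, with untreated means from 9.97 to 13.96. None of them passed limma's adjusted threshold of 0.05. Before adjustment 1 higher and 4 lower had p under 0.05, and with the replicate number as a block 0 rose and 3 fell. Over all genes 24.5% had such a p, and with the block 7.87% rose and 9.54% fell. Tamoxifen values lay above all untreated values for 3 of these markers and below them for 5. That is 66.7% apart, against 29.3% of all genes. Whether samples of a group were separate cultures is not stated in the labels; the spread behind the p-values is that of these samples and may be technical. In bulk RNA, fewer cells of a type and less RNA per cell cannot be told apart.

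Among the 37 genes, 5 rose after tamoxifen, 2 fell and 30 were not called (limma without the replicate block, Benjamini-Hochberg adjusted p under 0.05 over all 19938 genes). The rises were in the integrin subunits Itgav, Itgb4 and Itgb5 and in the laminin chains Lama3 and Lamc1. The falls were in the integrin subunit Itga3 and the laminin chain Lamb3. Over all genes 3.79% were called higher, 3.99% lower and 7.78% in either direction, against 18.9% of these 37. The members were chosen with earlier results of these data known, so this share describes them and is no test. All called changes were under 1.5-fold, the largest being the 1.45-fold fall of Itga3.

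**Figure D1:**
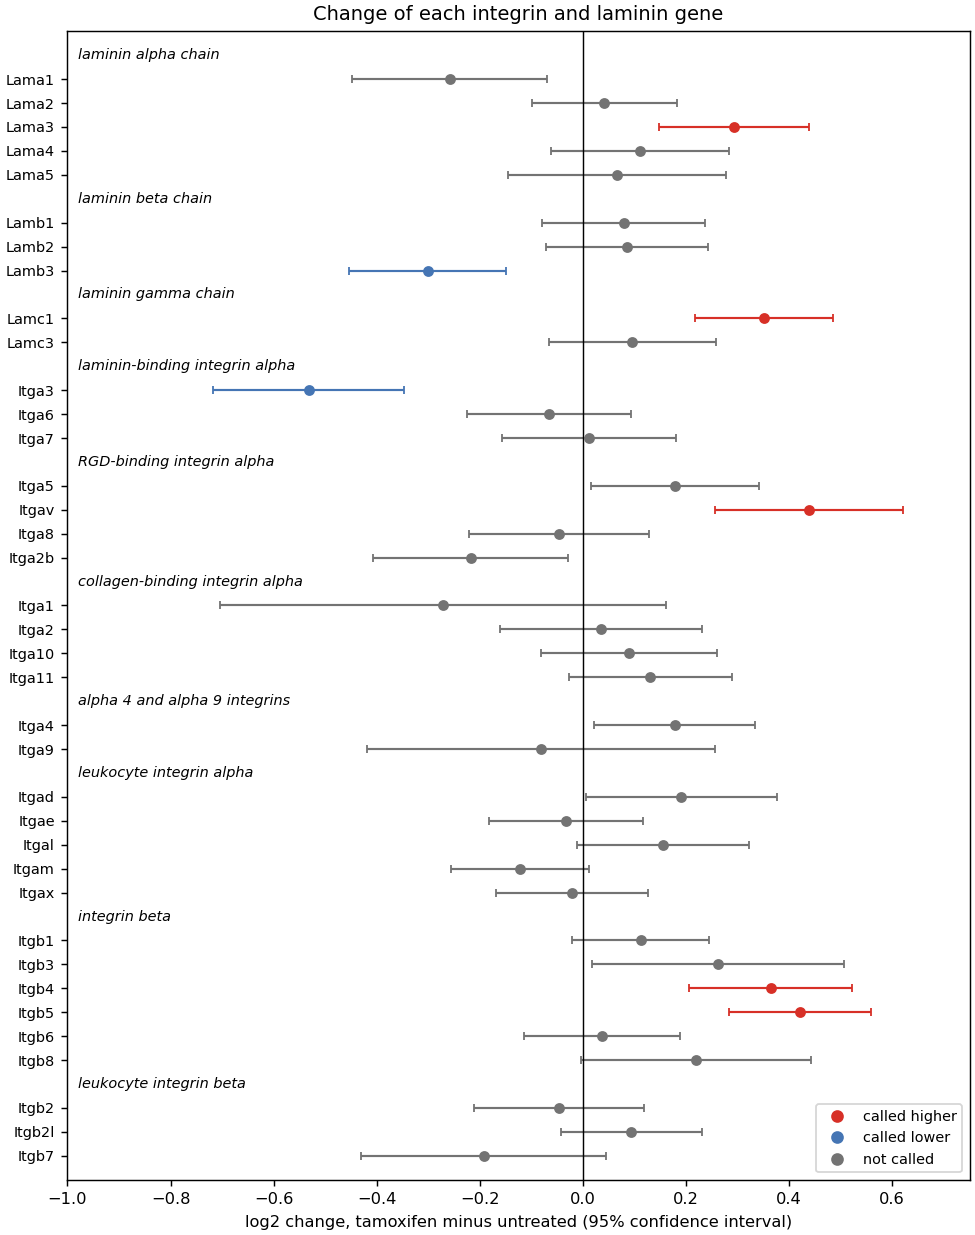
Log2 change of each of the 37 genes, tamoxifen minus untreated, with limma's 95% confidence interval, grouped by role. Red points were called higher, blue points lower and grey points not called; the called changes ran from -0.53 for Itga3 to 0.44 for Itgav.

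Promoter sequences are shown for the 4 called genes with an entry in the RefSeq promoter table (build GRCm38.p6), to set those that rose beside those that fell. They are Itgav and Itgb5, partners in 1 dimer that both rose, and Itga3 and Lamb3, which fell. Each run is the 250 bases before an annotated start site, 5′ to 3′ on the gene's strand. Capitals mark the letters CACCTG or its reverse CAGGTG, an E-box of the kind bound by Zeb and Snail repressors, and GGGCGG or its reverse CCGCCC, the GC box bound by Sp factors. The windows lie at chr2:83724147-83724396 (plus strand) for Itgav, chr16:33829415-33829664 (plus) for Itgb5, chr11:95076715-95076964 (minus) for Itga3 and chr1:193301993-193302242 (plus) for Lamb3.
Itgav: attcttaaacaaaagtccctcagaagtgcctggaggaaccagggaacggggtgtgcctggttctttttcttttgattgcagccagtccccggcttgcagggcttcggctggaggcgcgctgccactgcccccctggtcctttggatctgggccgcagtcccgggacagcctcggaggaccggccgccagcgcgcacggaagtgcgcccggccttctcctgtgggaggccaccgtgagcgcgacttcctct
Itgb5: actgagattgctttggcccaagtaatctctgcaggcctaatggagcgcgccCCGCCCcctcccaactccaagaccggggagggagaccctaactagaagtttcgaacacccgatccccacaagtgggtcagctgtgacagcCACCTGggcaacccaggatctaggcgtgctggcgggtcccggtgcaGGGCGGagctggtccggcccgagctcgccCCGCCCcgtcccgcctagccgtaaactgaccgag
Itga3: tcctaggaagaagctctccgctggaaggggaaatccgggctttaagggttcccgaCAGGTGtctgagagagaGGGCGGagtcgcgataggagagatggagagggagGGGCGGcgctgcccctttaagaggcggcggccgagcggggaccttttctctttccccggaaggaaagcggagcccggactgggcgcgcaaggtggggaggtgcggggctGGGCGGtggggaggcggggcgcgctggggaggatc
Lamb3: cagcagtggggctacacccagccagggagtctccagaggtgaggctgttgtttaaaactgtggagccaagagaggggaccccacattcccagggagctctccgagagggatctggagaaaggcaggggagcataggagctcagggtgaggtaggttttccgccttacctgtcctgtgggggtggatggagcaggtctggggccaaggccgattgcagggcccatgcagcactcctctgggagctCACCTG
The Itgb5 window held 1 E-box match and 3 GC box matches, and the Itga3 window 1 E-box match and 3 GC box matches. The Lamb3 window held 1 E-box match, which ended at the start site, and no GC box match; a further Lamb3 window, upstream and overlapping by a base, and the Itgav window held neither motif. A further Itga3 window, at a downstream start, held 1 GC box match. Of 32851 promoter windows in the table, 17.2% held the E-box and 32.7% the GC box; of the 27 windows found for 24 of the 37 genes, 8 held the E-box and 9 the GC box. CpG dinucleotides numbered 18 in the Itgav and Itgb5 windows, 22 in the printed Itga3 window and 3 in the printed Lamb3 window. The further Itga3 window held 5 and the further Lamb3 window 2. The median was 6 over all windows and 10 over the 27 windows of these genes. The motif matches are of letters in the windows searched, and E-box matches stood in a gene that rose and in genes that fell. Whether any factor binds there or regulates these genes was not tested.

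Of the subunits that bind the RGD motif of vitronectin and fibronectin, Itgav rose, and so did Itgb5, which pairs with Itgav as a vitronectin receptor. Itgav read 10.26, 10.01 and 10.04 on untreated arrays and 10.56, 10.58 and 10.48 on tamoxifen arrays. All tamoxifen values lay above all untreated values, with untreated replicate 1 the nearest to them. The change was 0.44 ± 0.08 on the log2 scale (SE), or 1.36-fold (limma adjusted p = 0.0159).

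Itgb5 read 11.21, 11.14 and 11.16 in untreated cells and 11.59, 11.65 and 11.54 after tamoxifen. The groups did not overlap, and the spread within each was small beside the distance between them. The change was 0.42 ± 0.06, or 1.34-fold (limma adjusted p = 0.00786), and Itgb5 stayed past the threshold in each of the 6 fits without 1 array. The call of Itgav was lost without untreated replicate 2 (adjusted p = 0.0654) and without tamoxifen replicate 2 (0.0727).

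Itgb3, which pairs with Itgav and, in platelets, with Itga2b, read 7.58, 7.24 and 7.43 in untreated cells and 7.84, 7.51 and 7.67 after tamoxifen. The groups overlapped, but the value was higher after tamoxifen in each same-numbered pair, by 0.27, 0.27 and 0.24. It was not called without the replicate block (0.26 ± 0.11, limma adjusted p = 0.175) and was called with it (adjusted p = 0.0164). Itga2b had a change of -0.22 ± 0.08, with all tamoxifen values below all untreated values and a limma adjusted p of 0.149.

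The fibronectin receptor subunit Itga5 read 10.81, 10.71 and 10.89 in untreated cells and 11.07, 10.94 and 10.94 after tamoxifen. The tamoxifen values lay above the untreated ones by a small margin, and the change of 0.18 ± 0.07 was not called (limma adjusted p = 0.165). Itga8, a receptor subunit for nephronectin, had a change of -0.05 ± 0.08. Itgb6 and Itgb8, which as dimers with Itgav activate latent TGF-beta, had changes of 0.04 ± 0.07 and 0.22 ± 0.10 and were not called (limma adjusted p = 0.781 and 0.212).

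Itgb1, the common beta subunit that pairs with most alpha chains, read 10.77, 10.71 and 10.69 in untreated cells and 10.80, 10.87 and 10.84 after tamoxifen. The groups did not overlap, but the change of 0.11 ± 0.06 was not called (limma adjusted p = 0.281), and its 95% confidence interval ran from -0.02 to 0.25. Of all 9 beta subunits, 7 had a change above 0 and 2 below (Itgb2 and Itgb7, both of leukocytes), with a median of 0.11; over all genes 53.2% of changes were above 0 and the median was 0.01. Of these 9, 2 were called higher and 0 lower, beside 3.79% and 3.99% of all genes.

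**Figure D2:**
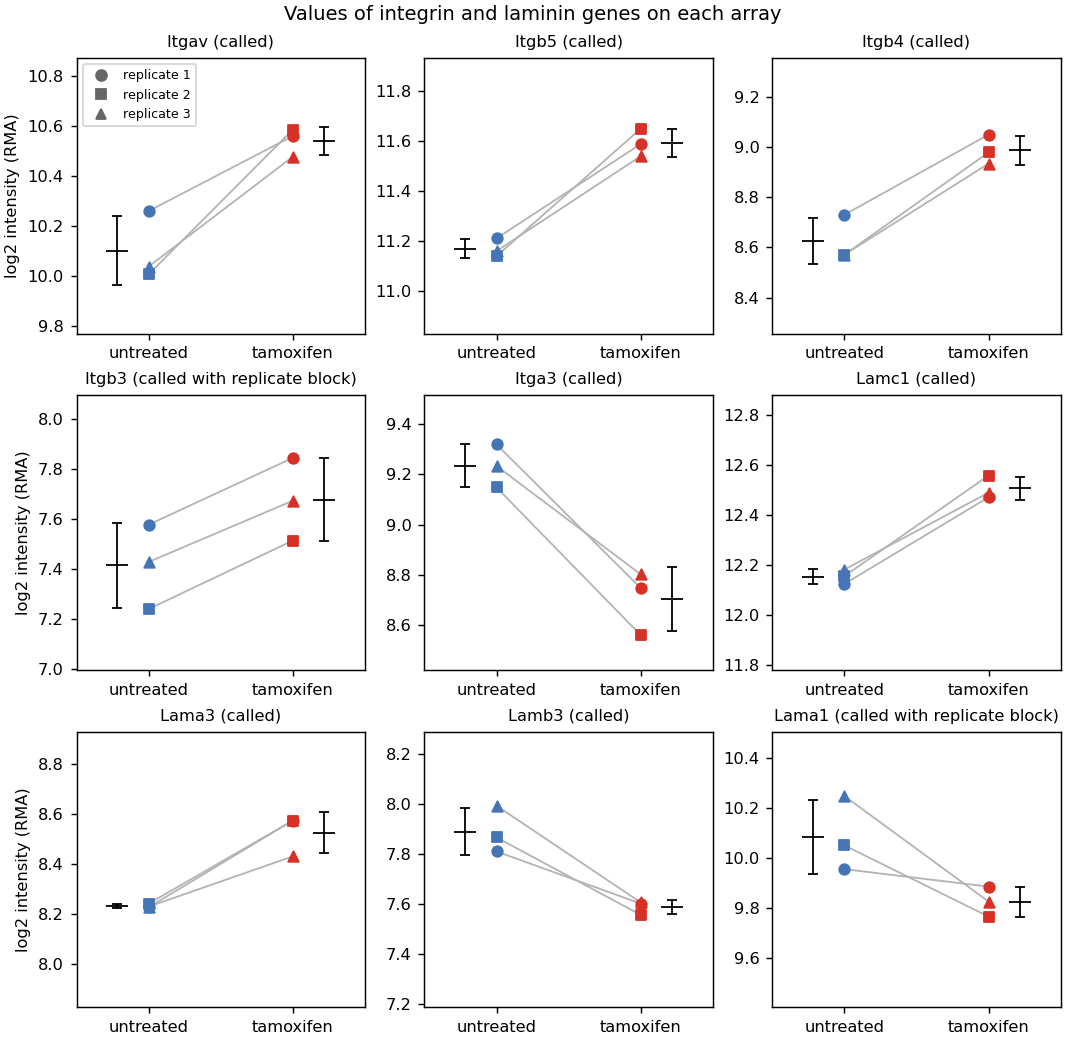
Log2 intensity on each array for the 7 called genes and the 2 called only with the replicate block; lines join arrays of the same replicate number, and bars beside them give the group mean and SD (n = 3). Every panel spans the same range of log2 units, and the groups overlap in the panel of Itgb3 only.

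Among the laminin receptors, Itga3 fell while Itga6 was not called. Itga3, which with Itgb1 binds the laminins of epithelia and kidney, read 9.32, 9.15 and 9.23 in untreated cells and 8.75, 8.56 and 8.80 after tamoxifen. The groups stood well apart, and the pairs differed by -0.57, -0.59 and -0.43. The change was -0.53 ± 0.08 on the log2 scale, leaving 69.2% of the untreated signal (95% confidence interval 60.8% to 78.6%), with a limma adjusted p of 0.00944. The call held whichever array was left out, with adjusted p-values from 0.0155 to 0.0386.

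Itga6, the laminin receptor subunit long used as a surface marker of stem cells, read 11.84, 11.85 and 11.88 in untreated cells and 11.92, 11.73 and 11.73 after tamoxifen. Tamoxifen replicate 1 lay above all untreated arrays and the other tamoxifen arrays below them. The change was -0.07 ± 0.07 (limma adjusted p = 0.618; 95% confidence interval -0.22 to 0.09). Itga7, the laminin receptor subunit of muscle, had a change of 0.01 ± 0.07.

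Itgb4, which pairs with Itga6 alone and anchors epithelial hemidesmosomes, read 8.73, 8.57 and 8.57 in untreated cells and 9.05, 8.98 and 8.93 after tamoxifen. The groups did not overlap, and the rise was 0.36 ± 0.07 on the log2 scale, or 1.29-fold (limma adjusted p = 0.0187). The call of Itgb4 was kept in 2 of the 6 fits without 1 array. It was lost without untreated replicate 2 (0.0755), untreated replicate 3 (0.0564), tamoxifen replicate 2 (0.0733) and tamoxifen replicate 3 (0.052).

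Of the 10 laminin chains, 2 rose, 1 fell and 7 were not called, beside 7.78% of all genes called in either direction. Lamc1, the gamma chain of most laminins, read 12.12, 12.16 and 12.18 in untreated cells and 12.47, 12.56 and 12.49 after tamoxifen. The groups did not overlap, and the pairs differed by 0.35, 0.40 and 0.31. The rise was 0.35 ± 0.06 on the log2 scale, or 1.28-fold (limma adjusted p = 0.0126). It was lost without untreated replicate 2 (0.0505) and without tamoxifen replicate 2 (0.0631).

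The beta chains that join Lamc1 were not called. Lamb1 read 10.04, 9.83 and 9.96 in untreated cells and 10.03, 10.00 and 10.04 after tamoxifen, so the groups overlapped, with a change of 0.08 ± 0.07 (limma adjusted p = 0.533). Lamb2, the beta chain of kidney and neuromuscular basement membranes, had a change of 0.09 ± 0.07 (limma adjusted p = 0.496). Lamc3 had a change of 0.10 ± 0.07 (0.453).

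The alpha chains differed among themselves. Lama1, the alpha chain of the first laminin of the mouse embryo, read 9.96, 10.05 and 10.25 in untreated cells and 9.89, 9.77 and 9.83 after tamoxifen. The tamoxifen values lay below the untreated ones, by 0.07 in the first pair and 0.42 in the third. The change of -0.26 ± 0.08 was not called (limma adjusted p = 0.0974), and was called with the replicate block (adjusted p = 0.0495).

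Lama5, the broadly expressed alpha chain of laminins used to culture pluripotent cells, read 10.76, 10.93 and 10.79 in untreated cells and 10.73, 11.07 and 10.88 after tamoxifen. The groups overlapped, and the change was 0.07 ± 0.09 (limma adjusted p = 0.714). Its sign turned without tamoxifen replicate 2 (-0.02). Lama2 and Lama4, of muscle and vessel basement membranes, had changes of 0.04 ± 0.06 and 0.11 ± 0.08.

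Lama3 and Lamb3, chains of the laminin beneath hemidesmosomes of skin, changed in opposite directions. Lama3 read 8.23, 8.24 and 8.23 in untreated cells and 8.57, 8.57 and 8.43 after tamoxifen. The untreated arrays were nearly identical and all tamoxifen arrays lay above them, a rise of 0.29 ± 0.06 on the log2 scale (limma adjusted p = 0.0297). Lamb3 read 7.81, 7.87 and 7.99 in untreated cells and 7.60, 7.56 and 7.61 after tamoxifen. Every tamoxifen array lay below every untreated one, a fall of 0.30 ± 0.07 (limma adjusted p = 0.0314).

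Both of these calls were lost in most fits that left out 1 array. The change stayed at 0.27 to 0.34 for Lama3 and at -0.34 to -0.25 for Lamb3. Those fits called 355 to 1580 of all genes, against 1552 with all 6 arrays. When each array was left out in turn, in 6 fits, Lama3 was called in 1, without tamoxifen replicate 3 (adjusted p = 0.0457), and reached 0.0578 to 0.123 in the others, the highest being without tamoxifen replicate 2. Lamb3 was called in 1, without untreated replicate 1 (0.0323), and reached 0.0553 to 0.124 in the others, again highest without tamoxifen replicate 2.

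Differences between 2 genes on the same array were computed for 6 pairs chosen after the values were seen. The shift of such a difference is the first gene's change minus the second's, so it adds no evidence beyond those changes. With pairs chosen this way, groups that lie apart are no test. Only the shift is read, since probe sets of different genes are not on 1 scale of abundance. Lama3 minus Lamb3 was 0.42, 0.37 and 0.24 in untreated cells and 0.97, 1.01 and 0.82 after tamoxifen, a shift of 0.59 with no overlap. Itga6 minus Itga3 was 2.52, 2.70 and 2.65 against 3.17, 3.17 and 2.92, a shift of 0.47 with no overlap. Itgb5 minus Itgb1 shifted by 0.31, Lamc1 minus Lamb1 by 0.27 and Itgav minus Itga5 by 0.26, each with no overlap. In these 5 pairs the exact permutation p, two-sided, was 0.1 (0.12 adjusted over the 6 pairs), which is the least that 3 arrays a group permit, so the threshold could not be reached. Lama5 minus Lama1 shifted by 0.32 with overlapping groups (exact p = 0.2, 0.2 adjusted).

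**Figure D3:**
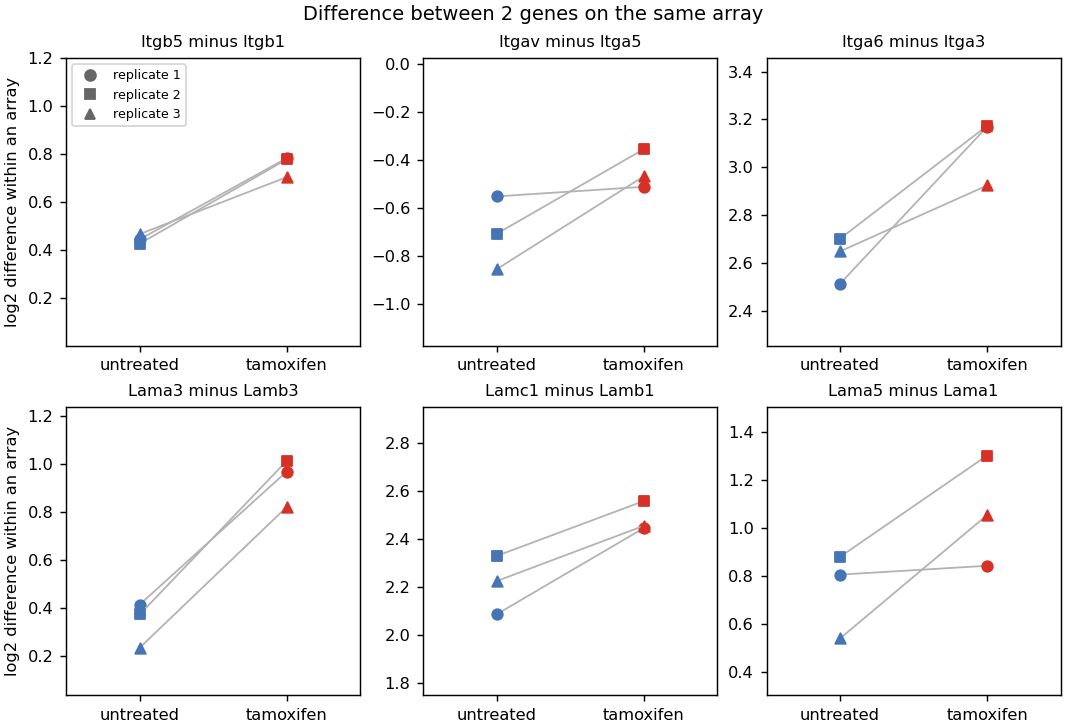
Log2 difference between 2 genes on the same array, in untreated and tamoxifen-treated cells; lines join arrays of the same replicate number. The groups are apart in 5 panels, the shift being largest for Lama3 minus Lamb3 (0.59), and overlap for Lama5 minus Lama1. The pairs were chosen after the values were seen.

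Collagen receptors, leukocyte integrins and the Itga4 and Itga9 subunits were not called. The 4 collagen-binding subunits, Itga1, Itga2, Itga10 and Itga11, had changes from -0.27 to 0.13. Itga1 was the most variable, with SDs of 0.40 and 0.25 in the untreated and tamoxifen groups and a 95% confidence interval from -0.70 to 0.16. Itga4, which binds fibronectin and Vcam1, had a change of 0.18 ± 0.07, with all tamoxifen values above the untreated ones (limma adjusted p = 0.153). Itga9, a tenascin receptor subunit, had a change of -0.08 ± 0.15.

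The 5 leukocyte alpha subunits, Itgad, Itgae, Itgal, Itgam and Itgax, had untreated means from 5.72 to 7.44 and changes from -0.12 to 0.19. Itgad was the only member with a further probe set; that probe set had a change of -0.04 against 0.19 for the one kept. The leukocyte beta subunits Itgb2, Itgb2l and Itgb7 had changes from -0.19 to 0.09. The intensities carry no detection call, so these values do not show whether the transcripts were present.

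Over all 37 genes, 24 changes were above 0 and 13 below, or 21 and 16 after cyclic loess or renewed quantile normalisation. Tamoxifen values lay above all untreated values for 9 genes and below them for 5, or 37.8% apart in either direction, against 29.3% over all genes (14.5% above and 14.8% below). Before adjustment 9 higher and 4 lower had p under 0.05, a level that 24.5% of all genes passed. The median change was 0.04 for the 27 integrins and 0.08 for the 10 laminins, against 0.01 over all genes. In the 3 replicate pairs the integrin median was 0.04, 0.06 and 0.04, and the laminin median was -0.02, 0.14 and 0.08. For the 30 genes not called, the widest 95% confidence limits were -0.70 and 0.51.

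With the replicate number as a block, 6 of the 37 rose and 3 fell, the called genes being the same 7 with Itgb3 and Lama1 added. In that fit 7.87% of all genes were called higher, 9.54% lower and 17.4% in either direction. When the multiple-testing adjustment covered all 35556 probe sets, Itgb5 alone stayed past the threshold (adjusted p = 0.0382), and Itga3 and Lamc1 lay just over it (0.0509 and 0.05002).

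**Figure D4:**
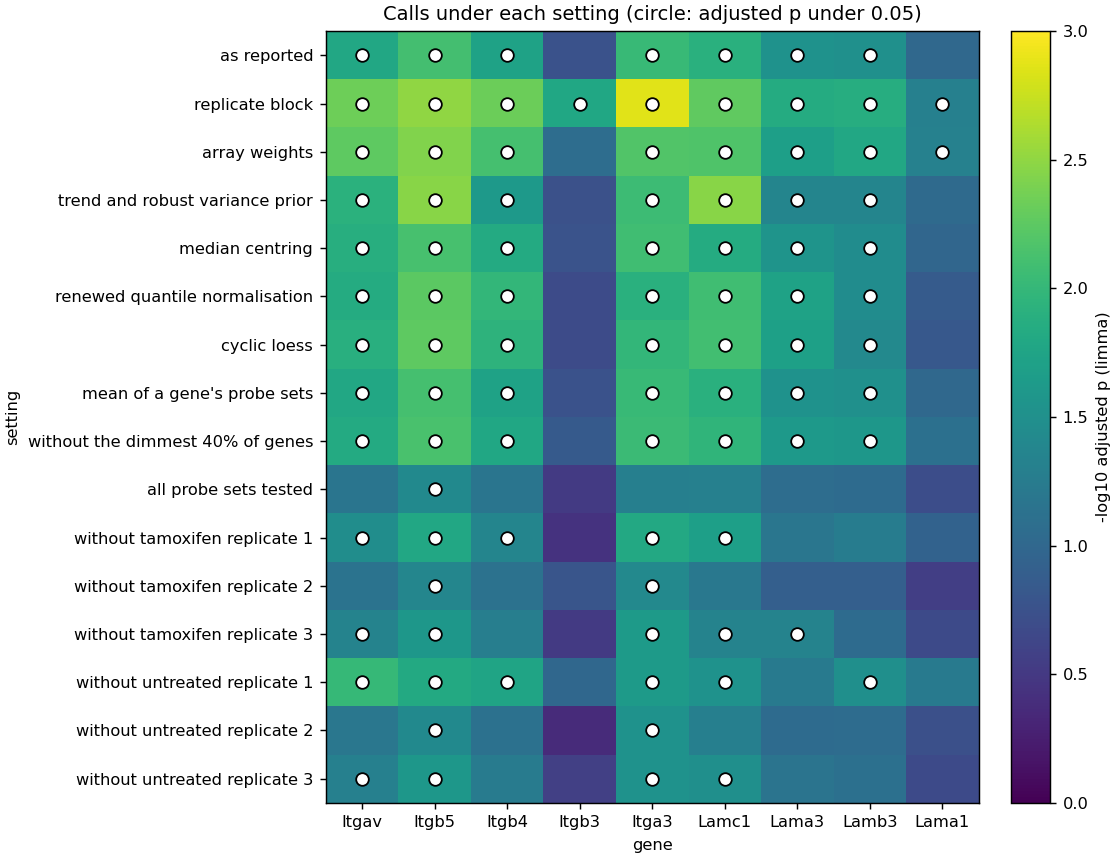
Adjusted p of the 9 genes under the reported fit and each alternative, as -log10 in colour; a circle marks an adjusted p under 0.05. Itgb5 carries a circle in every row, Itga3 in every row except that of all probe sets, and Lama3 and Lamb3 lose theirs in most rows that leave out an array.

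Genes that work with these proteins were taken in 3 lists. Of 39 measured regulators, adaptors and membrane partners of integrins, 1 rose, 3 fell and 35 were not called, with a median change of -0.02. With the replicate block there were 5 rises and 7 falls. Without the block the called share was 10.3%, against 7.78% of all genes. With it 12 of the 39 were called, beside 17.4% of all genes. Parva, which joins integrins to actin through Ilk, rose from 8.25 to 8.95, by 0.69 ± 0.11 on the log2 scale (limma adjusted p = 0.0114). The kinase Src fell by 0.34 ± 0.06 (0.0165). Tns2, a tensin of focal adhesions, fell by 0.31 ± 0.07 (0.0383), and Itgb1bp1, which binds the Itgb1 tail and restrains its activation, fell by 0.35 ± 0.09 (0.0455).

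Of 27 measured integrin ligands, in the matrix or on cell surfaces, 3 rose and 0 fell, with a median of 0.09. Over all genes 3.79% were called higher and 3.99% lower. With the replicate block 8 rose and 0 fell, beside 7.87% and 9.54% of all genes. Tgfbi, a matrix protein bound by several integrins, read 9.78 ± 0.14 in untreated cells and 11.27 ± 0.25 after tamoxifen (SD, n = 3; limma adjusted p = 0.00107). Frem1, a basement membrane protein of embryonic epithelia, rose by 0.49 ± 0.07 on the log2 scale (limma adjusted p = 0.00924), and the fibrillin Fbn2 by 0.39 ± 0.07 (0.0182).

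A list of laminin partners, called the basement membrane list here, held 35 measured genes. Some of them code for membrane or intracellular proteins and not for parts of the basement membrane. Of the 35, 3 rose and 2 fell, or 14.3% against 7.78% of all genes, with a median of 0.10. With the replicate block 6 rose and 3 fell, beside 17.4% of all genes. Sgcd, a sarcoglycan of the dystroglycan complex, rose by 0.66 ± 0.07 on the log2 scale (limma adjusted p = 0.00335). The basement membrane collagen Col18a1 rose by 0.38 ± 0.06 (0.0108), and Nid1, which bridges the Lamc1 arm to type IV collagen, by 0.40 ± 0.09 (0.0337). Plec, which ties Itgb4 to intermediate filaments, fell by 0.39 ± 0.07 (0.0135), and the laminin-related guidance protein Ntn1 by 0.58 ± 0.14 (0.0373).

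Among these genes, Tgfbi, Frem1 and Sgcd were called whichever array was left out; Frem1, Sgcd and Fbn2 lie among the dimmest 40% of genes. Without tamoxifen replicate 2, the adjusted p was 0.0523 for Parva and 0.0548 for Col18a1, which were called in the other 5 fits. Fbn2, Plec and Src were called in 3 of the 6 fits, being lost without untreated replicate 2 (0.0666, 0.0576 and 0.0521), tamoxifen replicate 2 (0.0781, 0.0664 and 0.0762) and tamoxifen replicate 3 (0.0723, 0.0582 and 0.0657). Itgb1bp1 was called without untreated replicate 1 (0.0297) and without tamoxifen replicate 1 (0.0349) only. Tns2, Nid1 and Ntn1 were called only without untreated replicate 1 (0.033, 0.0184 and 0.0138).

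**Figure D5:**
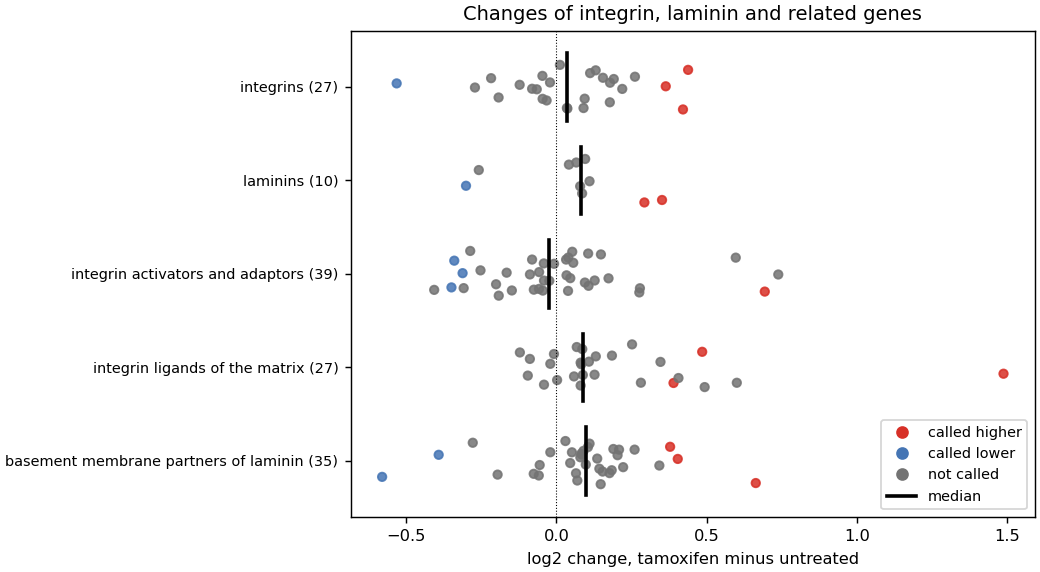
Log2 change of each gene among the integrins, the laminins and the 3 lists of related genes; red points were called higher, blue lower, and the black bar is the median. The medians lie between -0.02 and 0.10, and the farthest point is Tgfbi.

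Markers of other cells that make laminin or integrins were read beside these values. None of the 15 markers of primitive and parietal endoderm was called; before adjustment 2 higher and 1 lower had p under 0.05, and with the block 2 rose and 1 fell. Their summed linear intensity was 6023 to 7700 in untreated arrays and 7379 to 8531 in tamoxifen arrays, and groups overlapped. Sparc, also in the basement membrane list, made up 67.1% to 76.0% of this sum; without it the sums were 1959 to 2307 and 2025 to 2089. None of 12 fibroblast markers was called (0 higher and 1 lower with an unadjusted p under 0.05; 1 and 1 called with the block), with sums of 1417 to 1583 and 1522 to 1603. None of 7 measured trophoblast markers was called (1 and 2 before adjustment; 0 and 3 called with the block), with sums of 1373 to 1712 and 1131 to 1404. Over all genes 7.78% were called, 24.5% had an unadjusted p under 0.05, and 17.4% were called with the block.

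Of 9 endothelial and blood markers 2 rose, or 22.2%, beside 3.79% of all genes called higher. They were the receptor kinases Tek (0.88 ± 0.15 on the log2 scale, limma adjusted p = 0.0133) and Kdr (0.26 ± 0.07, 0.0468). The sums of the list were 1173 to 1325 in untreated arrays and 1571 to 1792 in tamoxifen arrays. Tek made most of that gap, at 362 to 558 against 755 to 940; the other 8 markers summed to 766 to 811 and 816 to 852. Kdr was called in none of the 6 fits that left out an array, with adjusted p-values from 0.0647 to 0.172. Tek lost its call without tamoxifen replicate 2 (0.0596) and tamoxifen replicate 3 (0.054). The part of these cell types in the integrin and laminin values was not tested. No marker reads 0 on this scale.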

How the data were processed

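Total RNA of 6 samples was labelled with biotin and hybridised to Affymetrix arrays, per the labels. The authors deposited 1 log2 value per probe set, computed by RMA with Affymetrix Expression Console, version 1.2 (per the submitters' processing notes). That the scale is log2 follows from the values, 3.18 to 14.64. RMA forces arrays to 1 distribution, which hides a shift common to most transcripts, and it shrinks differences of dim probe sets. Precision is limited by the number of arrays.

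Of 35556 probe sets, 21789 had 1 gene symbol in the platform annotation, 1621 several and 12146 none listed; the brightest of a gene was kept, without a filter on dim genes. All 37 members matched RefSeq by Entrez ID with 0 symbols changed, and 0 columns were of other samples. Groups were compared with limma 3.58.1 (R 4.3.3, lmFit and eBayes, two-sided, Benjamini-Hochberg); errors are SE for changes and SD for means. Code was tested on simulated data. Exact permutation tests used scipy 1.17.1.

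Members and lists were chosen with earlier results of these data known. Values by array are given for members called with or without the block and for the brightest of each chain or subunit type; Itgb1 and Itga5 were added after their values were seen. From each list of related genes, up to 3 called genes per direction by smallest p are named. Listed genes without a single-symbol probe set were not used here.

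Across genes, deviations of the 2 arrays that share a number from their group means correlated at 0.356, 0.345 and 0.389 for numbers 1 to 3. The main fit, its errors and the fits without 1 array did not use this pairing. As an alternative, limma was refitted with the number as a block.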

Additional observations from a re-analysis of the deposited data

How the results depend on the processing

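The 7 called genes kept their direction in all alternatives, and all 7 stayed called with the replicate block, averaging over the probe sets of a gene, median centring, renewed quantile normalisation, cyclic loess, a trended robust variance prior, array weights and without the dimmest 40% of genes, a filter that 22 of the 37 passed. With the replicate block 6 genes rose and 3 fell; array weights gave 5 and 3. Adjusting over all probe sets left 1 higher and 0 lower, an adjusted p under 0.01 left 1 and 1, and an adjusted p under 0.05 with a change of at least 1.5-fold left 0 and 0. Leaving out 1 array gave 1 to 4 higher and 1 to 2 lower, fewest without untreated replicate 2 and without tamoxifen replicate 2. The integrin median, 0.04, became 0.13 without the dimmest genes, which leaves 14 integrins, and 0.0066 after renewed quantile normalisation, 0.0056 after cyclic loess and 0.056 with array weights; without 1 array it ran from 0.018 to 0.068. The laminin median, 0.08, ran from 0.07 to 0.10 in all alternatives. Lama5, not called in any, turned to -0.022 without tamoxifen replicate 2 and ran up to 0.148 without tamoxifen replicate 1. The block fit called 9, 8 and 12 of the basement membrane, ligand and adaptor lists, against 5, 3 and 4. Of the list genes named, Itgb1bp1, Ntn1 and Kdr were not called after cyclic loess (0.0521, 0.0507 and 0.0602 by limma), Itgb1bp1 not with the trended prior (0.0504) and Kdr not after quantile normalisation (0.0631); the filter on dim genes removed Frem1, Fbn2, Sgcd and Kdr, leaving 1 called ligand of 3; adjusted over all probe sets, Tgfbi, Frem1, Sgcd and Col18a1 stayed called. Causes of these differences were not tested. The smallest exact p of 3 against 3 arrays is 0.1.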
